A study of Mus musculus with 6 samples.

Results

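The 9 genes described here mark microglia, the resident macrophages of the brain, in the cortex of newborn mice: Cx3cr1, P2ry12, Csf1r, C1qa, C1qb, C1qc, Tmem119, Trem2 and Aif1. The rule that chose them is a list of symbols of known markers, and all 9 are among the 23621 genes of the deposited table. The study compared cortex of Tle4-/- null mutant mice with cortex of wild-type littermates on postnatal day 0, with 3 RNA libraries per genotype. All animals had a strain background mixed from C57BL/6J, 129S6 and CD1, and both groups were untreated. Tle4 encodes a Groucho-family co-repressor found in deep-layer cortical neurons, and how the null allele was made is not given in the sources used here. The labels do not say whether each library came from 1 animal, so the p-values measure the spread between these samples.

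Microglia descend from macrophage precursors of the yolk sac and enter the brain in the embryo, where signalling through the receptor CSF1R keeps them alive. They survey the tissue with motile processes, remove dying cells, and secrete C1q, the complex that starts the classical complement cascade and that tags synapses for removal in the developing mouse visual system. Macrophages at the borders of the brain, in the meninges and around vessels, share Csf1r, Cx3cr1 and the C1q genes with microglia, so the 9 genes do not separate both populations in whole tissue. In bulk RNA, fewer microglia and less RNA per microglial cell cannot be told apart.

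Some facts on the libraries bear on the values. Levels within a gene are given as CPM, the count of the gene scaled to the size of its library with TMM factors. The libraries held 18617408 to 21632607 counts. Mitochondrial genes took 1.99%, 2.13% and 2.04% of the counts in mutant replicates 1 to 3, against 1.41%, 1.58% and 1.37% in wild-type replicates 1 to 3. This share and genotype cannot be told apart here. Tle4 stood at 69.3, 86.8 and 86.8 CPM in mutant replicates 1 to 3, against 198, 142 and 166 CPM in wild-type replicates 1 to 3, so about 0.480 of the wild-type transcript level was still counted in the libraries labelled null. Xist, transcribed in females, had 66194 to 79080 counts in the mutant libraries and 11 to 37 in the wild types. The Y-linked gene Ddx3y had 0 to 2 counts in the mutants, against 1463, 1891 and 2 in wild-type replicates 1 to 3, so wild-type replicate 3 was low for both genes. Xist level and genotype cannot be told apart here. Col1a1, a collagen of the meninges, had 753, 1470 and 964 counts in the mutants, against 28, 2092 and 618 in wild-type replicates 1 to 3, so wild-type replicate 1 stands apart as nearly free of meninges. Cortical neuron markers were present in all libraries, with 10 of 10 tested and a summed level of 4850 to 5225 CPM in the mutants and 4506 to 5164 CPM in the wild types.

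The sequence around the start of 6 of the 9 genes was taken from RefSeq on GRCm38.p6, as windows of 250 bases before to 50 after the start. PU.1, the lineage factor that myeloid cells need, binds sites built on GAGGAA. This 6-base core, searched on both strands, was in 4 of the 6 windows, and in 28.3% of all 32851 promoter windows of the table. The longer form GAGGAAGT, which contains the core, was in 1 of the 6 (C1qc) and in 3.2% of all windows. The ETS-IRF composite motif was in 0 of the 6 and in 2.72% of all windows. A match is a string of letters and not a measured binding site. The 4 windows with a match are shown because their genes carry the values below, 5′ to 3′ on the gene's strand, with the matches in capitals (TTCCTC is GAGGAA read on the other strand).
C1qb: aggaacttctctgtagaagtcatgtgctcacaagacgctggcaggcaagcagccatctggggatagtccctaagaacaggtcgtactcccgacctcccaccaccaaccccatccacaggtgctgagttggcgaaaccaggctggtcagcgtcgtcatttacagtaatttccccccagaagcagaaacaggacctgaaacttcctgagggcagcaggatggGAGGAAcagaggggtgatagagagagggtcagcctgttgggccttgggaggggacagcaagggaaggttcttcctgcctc
C1qc: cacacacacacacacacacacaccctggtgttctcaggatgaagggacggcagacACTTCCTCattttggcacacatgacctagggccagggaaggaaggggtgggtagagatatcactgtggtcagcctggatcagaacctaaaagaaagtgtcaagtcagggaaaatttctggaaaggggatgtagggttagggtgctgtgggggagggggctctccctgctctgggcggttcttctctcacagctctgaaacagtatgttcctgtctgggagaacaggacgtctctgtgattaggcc
Trem2: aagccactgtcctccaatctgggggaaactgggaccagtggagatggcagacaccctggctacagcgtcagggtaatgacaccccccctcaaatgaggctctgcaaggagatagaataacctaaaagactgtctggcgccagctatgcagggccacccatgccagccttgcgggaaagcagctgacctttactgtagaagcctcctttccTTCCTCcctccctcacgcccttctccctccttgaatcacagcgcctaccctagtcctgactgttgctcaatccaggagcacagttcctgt
Aif1: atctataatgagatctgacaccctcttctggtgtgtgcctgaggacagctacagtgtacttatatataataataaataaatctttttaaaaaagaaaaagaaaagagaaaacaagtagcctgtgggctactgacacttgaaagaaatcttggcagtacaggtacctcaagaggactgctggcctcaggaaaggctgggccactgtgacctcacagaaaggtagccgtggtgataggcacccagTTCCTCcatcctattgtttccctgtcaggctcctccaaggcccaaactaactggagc
These windows are chr4:136886151-136886450, chr4:136892865-136893164 and chr17:35176003-35176302 on the minus strand, and chr17:48346151-48346450 on the plus strand. The match began at -30 from the start in C1qb, at -195 in C1qc, at -40 in Trem2 and at -7 in Aif1. The windows of Cx3cr1 and P2ry12 held none of the 3 strings.

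No difference between the genotypes was detected for any of the 9 microglia genes. By edgeR's quasi-likelihood test, 0 of 9 passed an adjusted p of 0.05, where 0.111% of the 16274 genes tested did (18 genes, Benjamini-Hochberg adjusted over all of them). By DESeq2 0 of 9 passed, where 0.356% of all genes did, and by limma-voom 0 of 9, where 0.0799% did. Also 0 of 9 had an unadjusted p under 0.05 in edgeR, where 3.45% of all genes did. In 0 of 9 were all mutant libraries on one side of all wild-type libraries, where 7.93% of all genes had such a gap (3.75% with the mutants below and 4.18% with the mutants above). The median log2 fold change of the 9 genes, mutant over wild type, was -0.18, beside -0.01 over all genes tested, with 8 of 9 below 0. That sign rested on wild-type replicate 2, and without it the median was 0.16 and 2 of 9 lay below 0.

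**Figure D1:**
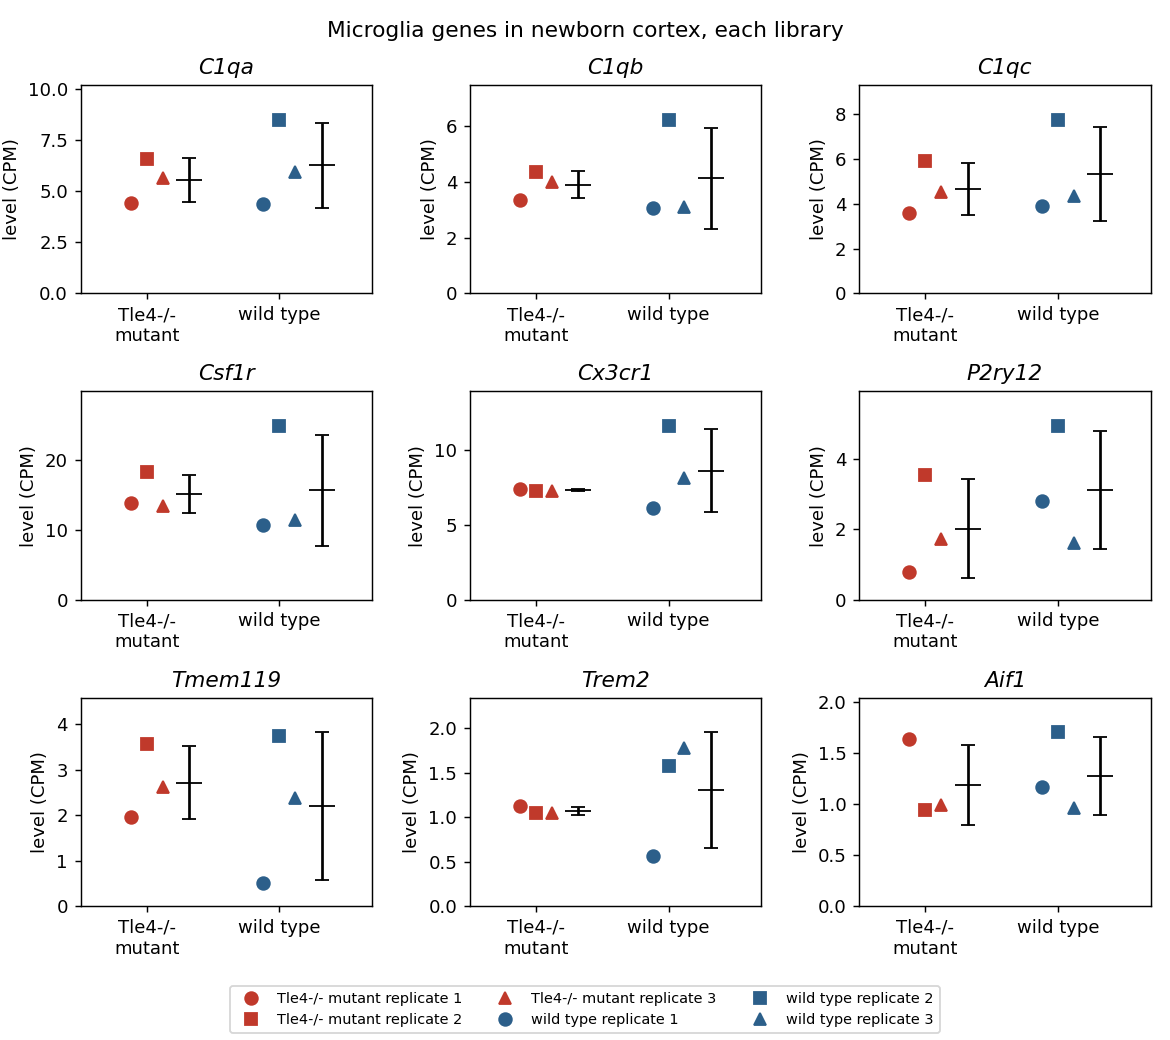
Level of each microglia gene in CPM in each library, with mutant libraries on the left and wild-type libraries on the right, the marker shape giving the replicate, and the black line and bar giving the mean ± SD of 3 libraries. Wild-type replicate 2 is the highest library in 8 of the 9 panels, and the genotypes overlap in every panel.

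The C1q genes encode the 3 chains of 1 protein and lie side by side on chromosome 4 between positions 136880129 and 136898803 (GRCm38), all on the minus strand. C1qa had 4.40, 6.54 and 5.63 CPM in mutant replicates 1 to 3, against 4.38, 8.48 and 5.91 CPM in wild-type replicates 1 to 3. Wild-type replicate 2 was the highest and the other libraries overlapped, and the mutant level was 0.881 of the wild type (log2 fold change -0.18, SE 0.28, 95% interval of the ratio 0.568 to 1.36, edgeR adjusted p = 0.99961). C1qb had 3.37, 4.34 and 4.02 CPM in the mutants and 3.06, 6.24 and 3.12 CPM in the wild types. C1qc had 3.60, 5.91 and 4.54 CPM in the mutants and 3.92, 7.76 and 4.35 CPM in the wild types. Both followed the order seen for C1qa at the top, with wild-type replicate 2 first and mutant replicate 2 second. Their mutant-to-wild-type ratios were 0.941 for C1qb (95% interval 0.573 to 1.55) and 0.873 for C1qc (0.535 to 1.43).

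The 3 chains kept nearly the same proportions in every library. By the deposited FPKM, a level per gene length and depth, C1qa made up 47.0%, 48.3% and 48.3% of the summed C1q level in the mutants, against 47.6%, 46.6% and 53.8% in the wild types. C1qb made up 32.6 ± 1.9% in the mutants and 30.5 ± 3.02% in the wild types (SD, n = 3 each). C1qc made up 19.5 ± 1.38% in the mutants and 20.1 ± 0.855% in the wild types (SD, n = 3 each). The shares depend on the gene length used: with counts in place of FPKM the mean C1qc share over the 6 libraries was 33.5%, against 19.8%. The chain shares of the genotypes differed by less than 1 SD of the wild-type libraries, while the summed level of the 9 genes ran from 33.3 to 70.9 CPM between wild-type replicates 1 and 2.

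**Figure D2:**
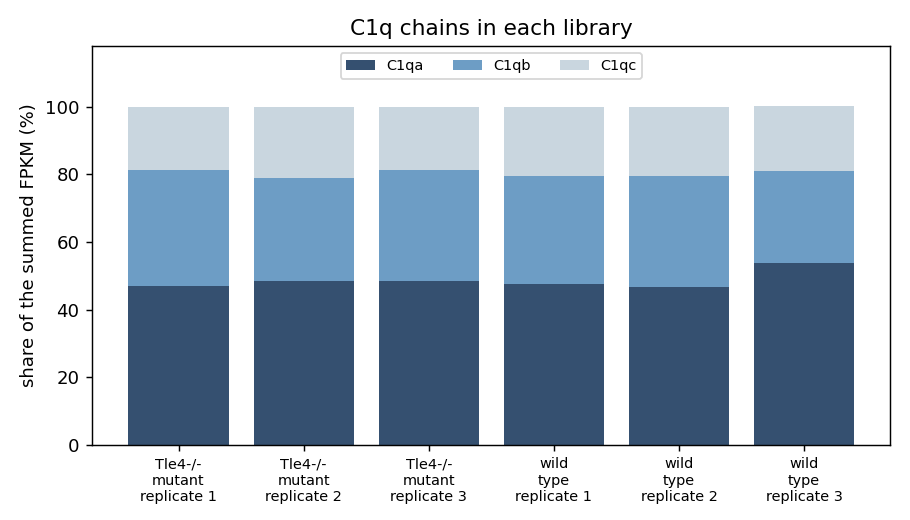
Share of each C1q chain in the summed FPKM of C1qa, C1qb and C1qc, in percent, for each library, with mutants on the left. C1qa holds 46.6% to 53.8% and C1qc 18.6% to 21.1% in the 6 libraries.

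Csf1r, the receptor for the survival factors CSF1 and IL-34, lies on chromosome 18 from 61105572 to 61132149. It had 13.8, 18.3 and 13.4 CPM in the mutants, against 10.7, 24.9 and 11.4 CPM in the wild types. The mutants lay within the range of the wild types, at a ratio of 0.967 (95% interval 0.572 to 1.64, edgeR adjusted p = 0.99961). Cx3cr1, the receptor for the neuronal chemokine fractalkine, had 7.44, 7.27 and 7.30 CPM in the mutants, against 6.16, 11.6 and 8.12 CPM in the wild types. The mutant libraries were close to each other (SD 0.0880 CPM) and the wild types (SD 2.77 CPM) spanned both sides of them, with a ratio of 0.849 (95% interval 0.581 to 1.24). Its entry in the table runs over 166668 bases of chromosome 9 and overlaps 5 other genes, 3 of them on its own strand. The highest means over all libraries were 99.1 CPM (Wdr48) and 22.6 CPM (Gorasp1), against 7.99 CPM for Cx3cr1. The others had 0.132 to 2.97 CPM. The Csf1r entry overlaps Hmgxb3 on the opposite strand, at a mean of 61.4 CPM over all libraries against 15.4 CPM for Csf1r. The strand setting of the counting is not given in the sources used here, and overlap of exons was not examined. Mixing of reads with the overlapping genes was thus not tested for Cx3cr1 or Csf1r.

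P2ry12 encodes an ADP receptor that steers microglial processes towards injury. It had 0.795, 3.56 and 1.72 CPM in the mutants, against 2.80, 4.94 and 1.61 CPM in the wild types. Mutant replicate 1, with 17 counts, was the lowest, and the groups overlapped. The mutant-to-wild-type ratio of 0.645 was the lowest of the 9, with a 95% interval of 0.257 to 1.62 (log2 fold change -0.63, SE 0.58, edgeR adjusted p = 0.99961). With 1 library left out the log2 fold change ran from -1.32 (without mutant replicate 2) to -0.13 (without wild-type replicate 2), and it was -0.24 without mutant replicate 1; the edgeR adjusted p was 0.954 or more in each case. P2ry12 lies inside Med12l, a Mediator subunit gene on the opposite strand, which had 29.2, 30.8 and 32.5 CPM in the mutants and 36.3, 38.7 and 37.5 CPM in the wild types. Whether counting used the strand is not given in the sources used here, and overlap of their exons was not examined. Mixing of reads between this pair was thus not tested.

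Tmem119, a membrane protein used to mark parenchymal microglia in the adult, had 1.97, 3.56 and 2.61 CPM in the mutants, against 0.509, 3.73 and 2.37 CPM in the wild types. It was the only 1 of the 9 with a ratio above 1 (1.22, 95% interval 0.475 to 3.15). Its 10 counts in wild-type replicate 1 stood below the other 5 libraries, with 42 to 83. The exact Poisson interval of that count (4.8 to 18.4, counting error only) lay below the intervals of the other 5, the lowest of which began at 30.3. Without that library the log2 fold change of Tmem119 was -0.18. Trem2, a lipid-sensing receptor that signals through TYROBP, had 24, 20 and 20 counts in the mutants, against 11, 35 and 33 in the wild types. The interval of wild-type replicate 1 (5.49 to 19.7) lay below the counts of the other 5 libraries. It met the intervals of all 3 mutant libraries, but not those of wild-type replicates 2 and 3, which began at 24.4 and 22.7. The ratio of Trem2 was 0.824 (95% interval 0.42 to 1.61). Aif1 encodes the actin-binding protein IBA1, the usual stain for microglia, and had 35, 18 and 19 counts in the mutants, against 23, 38 and 18 in the wild types. Its libraries did not sort by genotype, and its ratio was 0.928 (95% interval 0.518 to 1.66).

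**Figure D3:**
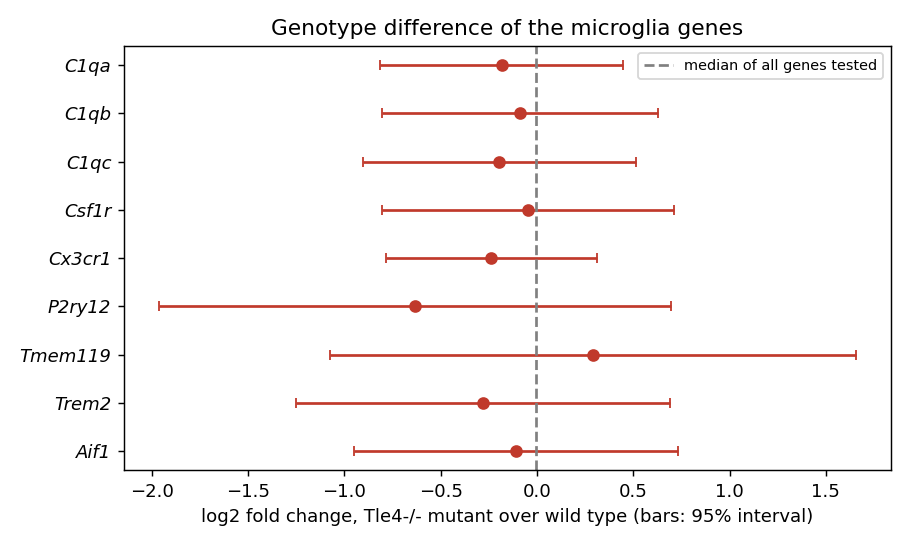
Log2 fold change of each microglia gene, mutant over wild type, with its 95% interval from the edgeR fit, and the median of all genes tested as a dashed line. All 9 intervals include 0, from the narrowest (Cx3cr1, -0.78 to 0.31) to the widest (Tmem119, -1.07 to 1.65).

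The intervals set what these libraries could show. For the C1q genes, Csf1r and Cx3cr1 the upper limits of the ratio lay between 1.24 and 1.64 and the lower limits between 0.535 and 0.581. For P2ry12, Tmem119 and Trem2 a 2-fold difference in at least 1 direction was not outside the interval. The authors' deposited table gives all 9 genes an adjusted p of 1.

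The spread among the libraries was shared by most of the 9 genes. Wild-type replicate 2 was the highest library for 8 of 9 (Trem2 was highest in wild-type replicate 3), while 13.6% of all genes tested were highest there. Its level over the mean of the other 5 libraries ran from 1.42 for Trem2 to 2.35 for P2ry12, with a median of 1.69, beside 0.995 over all genes. Wild-type replicate 1 was the lowest library for 6 of 9, and for 18.6% of all genes. The mean centred log2 level of the 9 genes was -0.25, 0.20 and -0.08 in the mutants, against -0.47, 0.67 and -0.07 in the wild types, so the mutants lay between the extremes of the wild types.

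Markers of other cells moved with it. Border-associated macrophage markers had 7 of 11 tested, 0 called, and all 7 were highest in wild-type replicate 2 and lowest in wild-type replicate 1. Their summed level over 11 genes was 40.3, 56.4 and 41.5 CPM in the mutants, against 14.1, 102 and 35.6 CPM in the wild types. Mrc1, the mannose receptor of these cells, had 5.89, 9.32 and 6.67 CPM in the mutants, against 0.611, 22.8 and 6.56 CPM in the wild types. The chemokine gene Pf4 had 9, 30 and 15 counts in the mutants, against 0, 76 and 14 in the wild types. The 11 meningeal markers (11 tested, 0 called) had 289, 581 and 396 CPM in the mutants, against 37.2, 749 and 270 CPM in the wild types. The 9 microglia genes, with 38.2, 51.5 and 41.3 CPM in the mutants and 33.3, 70.9 and 39.6 CPM in the wild types, kept the same order at both ends over a smaller range. The part of border macrophages and meninges in the microglia values was not tested. In wild-type replicate 1 the 7 tested border markers had 0 to 16 counts apart from Stab1, at 232. The 9 microglia genes had 10 (Tmem119) to 211 (Csf1r) counts there.

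**Figure D4:**
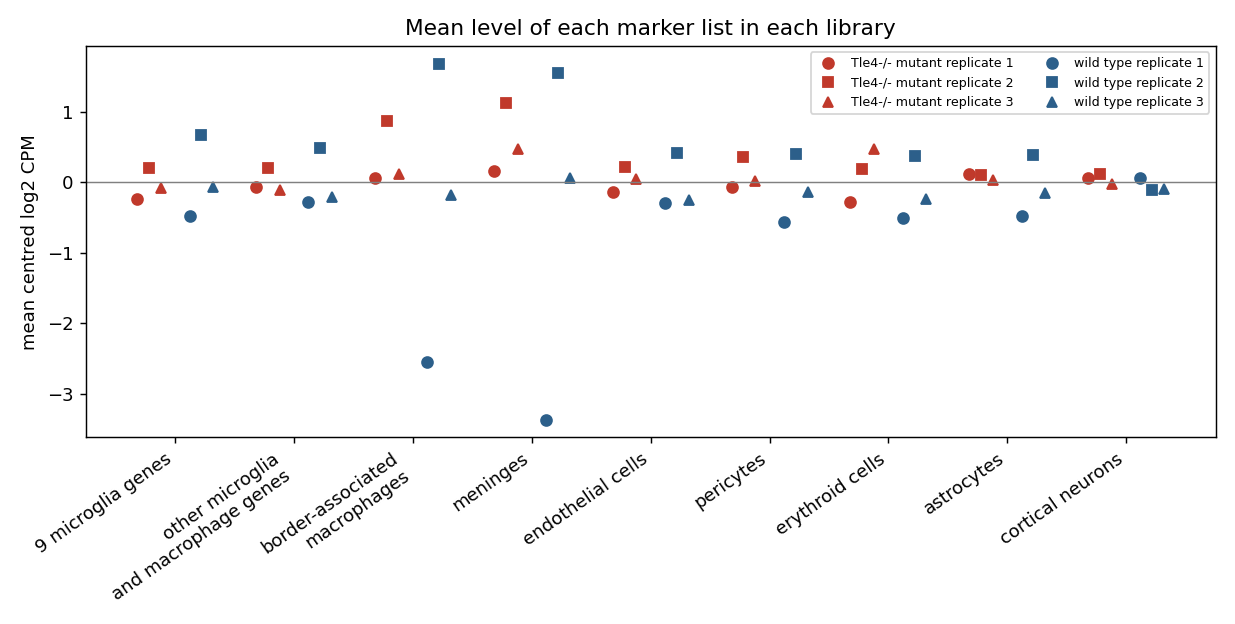
Mean centred log2 CPM of each marker list in each library, mutants left and wild types right within each list, with 0 as the mean over the 6 libraries. Wild-type replicate 1 is at -0.47 for the 9 microglia genes, -2.54 for border-associated macrophages and -3.36 for meninges, and wild-type replicate 2 is the highest in these 3 lists.

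Vessel markers were also high in wild-type replicate 2. Endothelial markers (12 of 12 tested, 0 called, median log2 fold change 0.00) summed to 264, 328 and 289 CPM in the mutants, against 228, 374 and 245 CPM in the wild types. Pericyte markers (7 of 7 tested, 0 called, median 0.15) summed to 181, 234 and 198 CPM in the mutants, against 140, 254 and 167 CPM in the wild types. Red cell markers (4 of 10 tested, 0 called, median 0.22) summed to 134, 195 and 246 CPM in the mutants, against 130, 235 and 158 CPM in the wild types, so all libraries held some blood. Other blood cells gave little. Ccr2, the receptor of circulating monocytes, had 0 to 1 counts in the mutants and 0 to 2 in the wild types, and lymphocyte and mast cell markers summed to 0.156 to 0.576 CPM in the mutants and 0.357 to 1.12 CPM in the wild types, with none passing the filter on low counts. Of the monocyte and neutrophil markers 4 of 12 were tested and 0 called (median 0.34).

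A wider list of microglia and macrophage genes also held no call. Of 23 genes 22 were tested, 0 were called, 10 lay above 0 and 12 below, and the median log2 fold change was -0.06. Cd68, a lysosomal glycoprotein of macrophages, had 3.04, 3.14 and 2.56 CPM in the mutants, against 3.21, 4.13 and 3.23 CPM in the wild types (log2 fold change -0.27, edgeR adjusted p = 0.99961). Every mutant library lay below every wild-type library, as for 3.75% of all genes tested. A gap between the genotypes in either direction was seen in 2 of the 22, and in 7.93% of all genes. The G protein-coupled receptor gene Gpr34 gave -0.49, and Selplg, the P-selectin ligand, -0.42. In wild-type replicate 2, 12 of the 22 were at their highest.

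Among regulators of the lineage, 8 of 10 transcription factors were tested and 0 called, with a median of -0.05. Ikzf1, an Ikaros factor used by blood cells and by striatal neurons, had 2.76, 2.93 and 4.17 CPM in the mutants, against 7.49, 4.58 and 13.8 CPM in the wild types (log2 fold change -1.39, SE 0.39, edgeR adjusted p = 0.99961). Every mutant library lay below every wild-type library, as for 3.75% of all genes tested, and wild-type replicate 3 was the highest. A gap in either direction was seen in 1 of the 8 factors, and in 7.93% of all genes. Irf5 gave -0.62, and Mef2c, which cortical neurons also use, gave 0.09. Spi1, which encodes PU.1 and is named here outside the rule for its link to the motif, had 14, 18 and 31 counts in the mutants, against 8, 40 and 14 in the wild types.

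Ligands that act on microglia were tested for 7 of 8 genes, 0 called, with a median of 0.09. Cx3cl1, which encodes fractalkine, had 47.5, 63.1 and 63.4 CPM in the mutants, against 76.7, 74.4 and 61.0 CPM in the wild types (log2 fold change -0.29, edgeR adjusted p = 0.99961). The groups overlapped through wild-type replicate 3. Tgfb1, a growth factor that microglia need, gave 0.22, and Cd200 and Cd47, inhibitory signals of neurons to macrophages, 0.16 and 0.09. Genes of TREM2 and CSF1R signalling (10 of 11 tested, 0 called, median 0.08) included the adaptor Dok1 at 0.40, the chaperone gene Clu at 0.11, the kinase gene Syk at -0.19 and Vav1 at 0.31.

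The other complement genes (14 of 18 tested, 0 called) had a median of -0.07, with the neuronal genes Sez6 at -0.21, Csmd3 at -0.17 and Csmd1 at -0.09, and the inhibitor Cd59a at 0.22. Genes of the axon-tract state of perinatal microglia (9 of 12 tested, 0 called) had a median of 0.17 and 8 above 0, with the growth factor Igf1 at 0.34, the tetraspanins Cd63 and Cd9 at 0.28 and 0.17, and the lipase Lpl at -0.12. Several of these are also made by other neural cells. Of 12 activation and inflammation genes 2 passed the filter and 0 were called: Nos2 at -0.33 and Cd86 at 0.13. The cytokine gene Tnf had 0 to 1 counts in the mutants and 0 to 2 in the wild types. Interferon response genes (6 of 10 tested, 0 called) had a median of 0.29, with Irf7 at 0.83 (edgeR adjusted p = 0.99961), Ifit2 at 0.35 and Ifitm3 at 0.32. Astrocyte (10 tested, median 0.15), choroid plexus (4 of 7 tested, median 0.25) and cortical neuron markers (10 tested, median -0.02) had 0, 0 and 1 called, the last being Fezf2, a factor of subcerebral projection neurons, and 0 neuron markers were called without mutant replicate 3. The 7 choroid plexus markers summed to 104 CPM in mutant replicate 3, against 2.19 to 8.17 CPM in the other 5 libraries. That library stands apart in this sum. The 4 tested markers had only 0.991 (Kcne2) to 4.17 CPM (Aqp1) there, so the markers below the filter made up most of it. Without mutant replicate 3 the median log2 fold change of the 9 microglia genes was -0.17, against -0.18 with all 6 libraries.

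Between genes, levels were compared per length with the deposited FPKM, as the mean over 6 libraries. C1qa was first at 5.68 FPKM, followed by C1qb at 3.71, Csf1r at 2.64, C1qc at 2.34, Cx3cr1 at 1.16, Tmem119 at 0.956, Aif1 at 0.386, P2ry12 at 0.292 and Trem2 at 0.194 FPKM. Neighbours in this order differed by more than the larger of their SDs for 3 pairs, C1qa over C1qb, C1qc over Cx3cr1 and Tmem119 over Aif1. The other 5 pairs did not.

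The lower part of that order depended on the gene length behind the FPKM. Counts and FPKM together imply a length of 1040 bases for C1qa and 1088 for C1qb, equal to their annotated exons in GENCODE M21. For P2ry12 they imply 8851 bases, against 2344 in its longest coding transcript, for Trem2 6119 against 1088, and for Aif1 3205 against 875. Per kilobase of the longest coding transcript, Trem2 stood at 1.09, P2ry12 at 1.10, Tmem119 at 1.10 and Aif1 at 1.41, and C1qc, at 4.18, moved above C1qb, at 3.71. C1qa remained first under all 3 lengths, and Trem2 ninth.

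**Figure D5:**
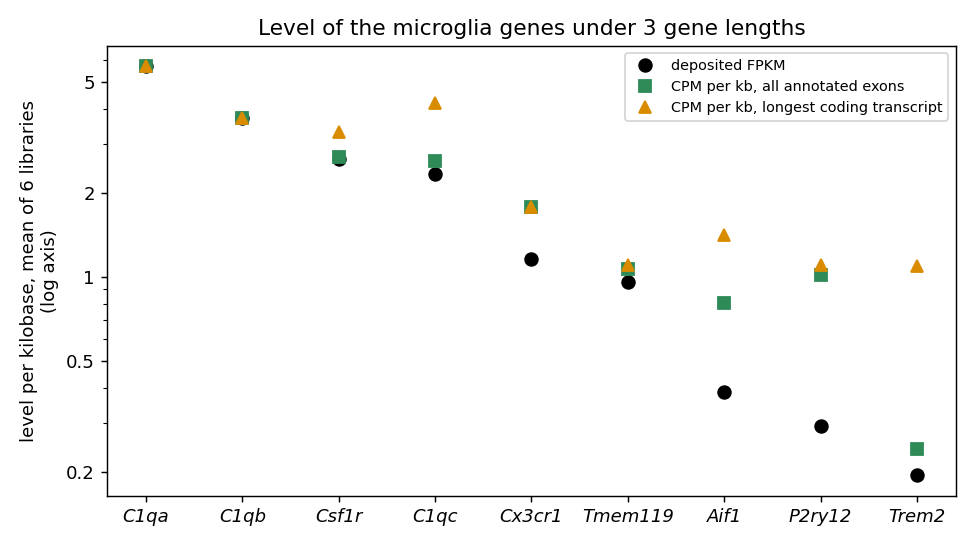
Level of each microglia gene per kilobase, as the mean of 6 libraries on a log axis, from the deposited FPKM and from CPM over 2 annotated lengths. C1qa is at 5.68 under all 3, while Trem2 is at 0.194 by FPKM and 1.09 per kilobase of its longest coding transcript.

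Over the 6 libraries, the gene whose log2 level followed the mean of the 9 most closely, of 13344 ranked, was Laptm5 (Pearson r = 0.996). It encodes a lysosomal membrane protein and belongs to the wider list of microglia and macrophage genes. Laptm5 had 7.58, 9.47 and 8.50 CPM in the mutants, against 6.42, 12.7 and 8.17 CPM in the wild types. Tifa (0.995), Ptges (0.991), Perp (0.991) and Bicc1 (0.986) came next. These r values describe 6 points that share their libraries and depth, and 187 of the ranked genes reached 0.9. Of the 20 other microglia genes ranked only Laptm5 was among the first 100, which are 0.749% of all ranked genes. The first 100 also held 4 of the 12 endothelial markers. Within the 9, each gene's r with the mean of the other 8 was 0.959 for C1qa, 0.943 for C1qc, 0.925 for C1qb, 0.916 for Csf1r and 0.877 for Cx3cr1. It was lower for Tmem119 (0.663), Trem2 (0.535), P2ry12 (0.448) and Aif1 (0.196), the 4 genes with the fewest counts.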

How the data were processed

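RNA of newborn cortex was sequenced for 3 mutant and 3 wild-type samples. Tools named in the submitters' processing notes are edgeR, StringTie and HISAT2 2.0.4, with mm10 and GRCm38.p4 as builds. The sources used here do not give the counting program, annotation release or strand setting. The authors deposited 1 table with whole-number counts per gene, FPKM values, and a p-value with its adjusted value for their own test, per the file headers. Symbols that had become dates (25 rows) were looked up by gene ID.

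Counts were tested with edgeR 4.0.16 in R 4.3.3: filterByExpr, TMM factors, a robust quasi-likelihood fit on genotype over all 6 libraries, and Benjamini-Hochberg adjustment over all genes tested, at 0.05. Each SE was taken from the fold change and the F value of its test, and 95% intervals use the t distribution of the fit. Depth was 18617408 to 21632607 counts, and count intervals are exact Poisson limits. The steps were checked on simulated data. Log2 levels used a prior count of 2. Alternatives were DESeq2 1.42.0, its size factors, limma-voom (limma 3.58.1), both filters, a replicate block, each library left out, and mitochondrial genes removed. Other gene lengths were chosen after seeing the data. Where a symbol has 2 rows, the row with more counts was used.

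The genes named are the 9 members, up to 4 genes with the smallest p from each list, the 5 genes most like the members (mean level of 1 CPM or more), and Tle4, Xist and Col1a1. Others were named after their values were seen. Members and lists were chosen with earlier results of these data known. List genes absent from the table are not analysed here. A few genes that the rule takes are not reported here.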

Additional observations from a re-analysis of the deposited data

How the results depend on the processing

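The number of microglia genes past the threshold was 0 under all 13 alternatives. Their median log2 fold change stayed between -0.19 and -0.12 under the alternatives that kept all 6 libraries, and lay between -0.38 and 0.16 when 1 library was left out, the only value above 0 being that without wild-type replicate 2. Over all genes the count of calls, 18, was 58 by DESeq2 and 9 with a replicate block, and 8 to 19 with 1 library left out (8 without mutant replicate 3); the cause was not tested. Over all genes, same-numbered libraries did not deviate together (correlations of -0.06, 0.10 and -0.02), so the numbers were not taken as pairs. Only replicate 2 of each genotype correlated best with its own number. For the 9 microglia genes replicate 2 was the highest library of each genotype (mean centred log2 level 0.20 in the mutants and 0.67 in the wild types). The border macrophage and meningeal lists were also highest in replicate 2 of each genotype. Whether same-numbered libraries were handled together was not tested. With counts in place of FPKM, which leaves out gene length, the mean chain shares were 39.7% for C1qa, 26.9% for C1qb and 33.5% for C1qc, against 48.5%, 31.6% and 19.8%. DESeq2 size factors moved no library's microglia level by as much as its genotype's SD. Depth limits Trem2 and Aif1, with 11 to 38 counts a library, and Tmem119, with 10 counts in wild-type replicate 1.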

Other observations

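Itgam, which encodes the CD11b chain of complement receptor 3 on microglia, has 2 rows under the same symbol at overlapping positions of chromosome 7. The first had 16, 61 and 9 counts in mutant replicates 1 to 3, against 19, 48 and 15 in wild-type replicates 1 to 3. The second had 40, 0 and 35 counts in the mutants, against 33, 0 and 51 in the wild types, so it was at 0 in replicate 2 of both genotypes. Summed, the rows had 56, 61 and 44 counts in the mutants, against 52, 48 and 66 in the wild types. Either row alone ranks the libraries differently from the sum. The counts above for the wider microglia list use the first row.

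Med12l, which overlaps P2ry12 and was looked up for that reason, had every mutant library below every wild-type library, as 3.75% of all genes did (log2 fold change -0.28, SE 0.11, edgeR adjusted p = 0.99961). P2ry12 itself overlapped between the genotypes.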
